A study of Mus musculus with 4 samples.

Results

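The glycolysis enzymes described here are 10 genes, Hk1, Gpi1, Pfkl, Aldoa, Tpi1, Pgk1, Bpgm, Eno1, Pklr and Ldha. They were taken by symbol from 22730 genes with a transcript row, and by the same symbols from the junction tables, where they hold 119 of 186874 known splice junctions. Gpi1 was chosen by its measured values, since it had been seen to change between the genotypes compared here, and it is described with no test. The other 9 genes entered for their place in the pathway.

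The libraries hold RNA of fetal liver cells from 2 mice labelled as wild type (WT) and 2 labelled hnRNP L -/- (KO). hnRNP L binds RNA and takes part in splicing, and the comparison is of gene levels and splicing between these genotypes. The housing protocol names C57BL/6, CD45.1, LckCre transgenic and Gt(ROSA)26Sortm4(ACTB-tdTomato,-EGFP)Luo mice and does not say which of them these libraries came from. In the sources used here, the kind of deletion, the cells it covers, the age of the fetuses and their litters are not given, and p-values measure only the spread between these libraries.

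Glycolysis breaks glucose down to pyruvate and makes ATP without oxygen. Mature red cells have no mitochondria and live on it, so inherited defects of hexokinase, glucose-6-phosphate isomerase, aldolase, triosephosphate isomerase, phosphoglycerate kinase or red cell pyruvate kinase cause hemolytic anemia. In red cells part of the flow passes through a side loop made by Bpgm, whose product 2,3-bisphosphoglycerate lowers the oxygen affinity of adult hemoglobin. Fetal liver holds the red cell precursors of the fetus beside hepatocytes, which can also run the pathway backwards to make glucose.

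Mapped reads ranged from 70020061 to 111324295 per library, and reads on the transcripts used from 33849311 to 57085873. Hnrnpl (chromosome 7, 29595909 to 29607285, plus strand, in the same coordinates as the genes below) was lower in both KO libraries, at 458 and 601 counts per 1000000 (CPM) in WT and 279 and 268 in KO (log2 fold change -0.95, SE 0.16, adjusted p = 0.0115 by the quasi-likelihood test of edgeR). The KO level was 0.516-fold that of WT, and all 12 known Hnrnpl junctions kept reads in both KO libraries, with ratios of KO to WT from 0.281 to 0.836, so much of the transcript remained in the libraries labelled KO. Xist had 336 reads in KO replicate 2 and 31498 to 51618 in the other libraries. The KO libraries thus differed widely from each other in Xist, and the WT libraries did not. What goes with this difference in the levels of genes on the X chromosome, such as Pgk1, was not tested. The summed CPM of 12 erythroid marker genes was 24385 and 24168 in WT and 16476 and 12823 in KO, and 9 of the 12 were lower. Here and for the markers below, higher and lower are by an adjusted p under 0.05 in the edgeR test. Over all genes tested, 11.4% were higher and 9.43% lower. The summed CPM of 12 hepatocyte markers was 52096 and 38050 in WT and 79927 and 65734 in KO, with 4 of 12 higher. Megakaryocyte markers (605 and 654 CPM in WT, 1147 and 963 in KO, 6 of 8 higher) and granulocyte markers (782 and 656 in WT, 1312 and 995 in KO, 4 of 9 higher) moved with genotype too. Macrophage markers summed to 386 and 285 CPM in WT and 277 and 217 in KO, with 2 of 8 higher and 2 lower. Striated muscle markers summed to 71.5 and 396 CPM in WT and 9.16 and 26.2 in KO, with 9 of the 11 tested lower and Mb at 0 in at least 1 library. The part of these shifts in the results below was not tested, and in bulk RNA fewer cells of a type and less RNA per cell cannot be told apart.

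Per length, on the deposited RPKM scale (reads per kilobase and per 1000000 mapped reads), the 10 genes spanned a wide range of levels in WT liver. Pklr stood at 117 ± 20.2 (SD, n = 2 as for all such means), Ldha at 111 ± 15.9, Aldoa at 90.7 ± 41.7 and Bpgm at 87.1 ± 1.55. Tpi1 followed at 75.0 ± 2.19, Pfkl at 37.3 ± 7.45 and Hk1 at 28.1 ± 1.56. Gpi1 at 17.7 ± 3.79 and Eno1 at 13.2 ± 3.68 were lower, and Pgk1 was last at 2.85 ± 0.835. Neighbours among Pklr, Ldha, Aldoa and Bpgm do not differ beyond the spread of the WT libraries, and neither do Gpi1 and Eno1. The other neighbours in this order did not overlap between the WT libraries. In KO liver Aldoa stood at 148 ± 0.791 RPKM, Ldha at 134 ± 22.8, overlapping Aldoa, and Pklr at 124, while Bpgm at 59.7 lay below Tpi1 at 71.8 and Pfkl at 18.4 lay below Gpi1 at 32.1, Hk1 at 31.0 and Eno1 at 24.9.

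The transcript counts keep only reads with a mapping quality of at least 10, so levels of genes that share sequence with near-identical copies elsewhere in the genome are uncertain. Gapdh, the enzyme between Tpi1 and Pgk1 in the pathway, had 6 to 30 reads on its transcript per library but 2329 and 4574 reads across its known junctions in WT and 3797 and 4391 in KO. Pgk1 had 0.520 transcript reads per junction read and Eno1 1.24, each over 10 known junctions, while Aldoa with 11 had 5.96 and Pkm2 with 10 had 4.14, so the place of Pgk1 and Eno1 in the order of levels is uncertain. Reads summed over the known junctions of a gene were tested as a second count of each gene.

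Of the 9 genes other than Gpi1, 1 rose (Eno1), 2 fell (Pfkl and Bpgm) and 6 did not pass an adjusted p of 0.05. Over all 15036 genes tested, 20.8% passed, 11.4% higher and 9.43% lower in KO (1711 and 1418 genes, against 2374 and 942 without scaling). The median log2 fold change of the 9 genes was 0.05, and that of all genes was 0.02. By junction sums 1 of the 9 was higher and 1 lower, where 10.6% of 11265 genes passed. The 2 groups did not overlap in 65.2% of all genes tested.

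**Figure D1:**
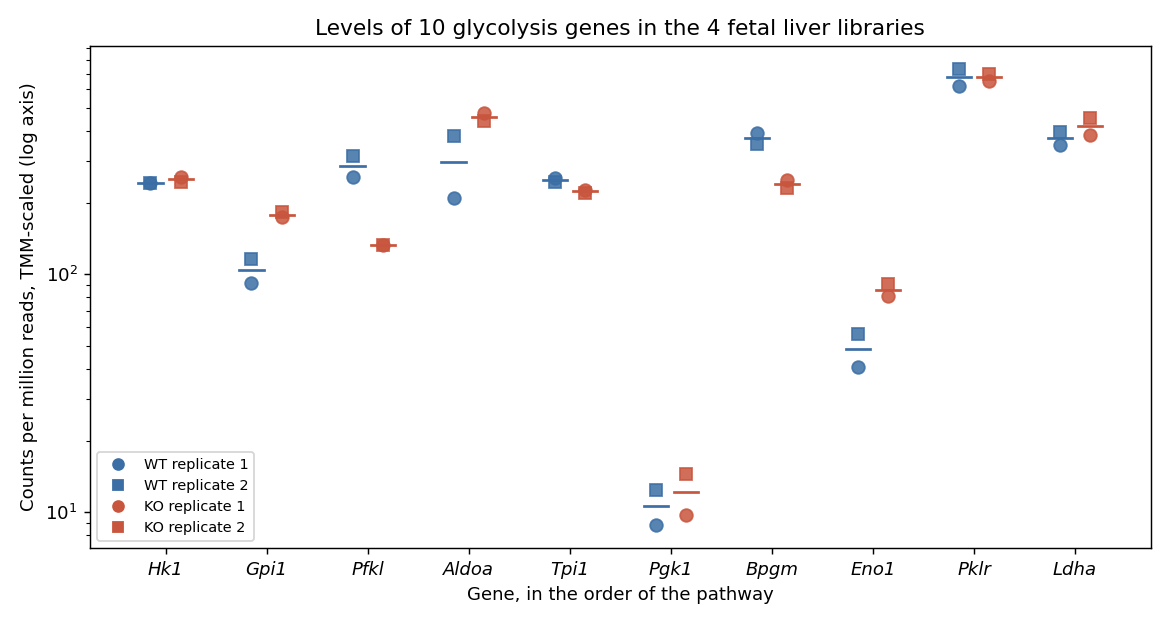
Level of each gene in each library, in counts per 1000000 on TMM-scaled library sizes (log axis), with genes in pathway order; points are libraries and bars are group means (n = 2). Pfkl, Bpgm and Tpi1 lie lower and Gpi1, Eno1, Aldoa and Hk1 higher in both KO libraries, while Pgk1, Pklr and Ldha overlap. Of these, Tpi1, Aldoa and Hk1 did not pass the test. The groups did not overlap in 65.2% of all genes tested. Levels between genes are not per length.

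Hexokinase 1, from Hk1, traps glucose in the cell as glucose-6-phosphate and is the main hexokinase of red cells. Hk1 (NM_001146100, chromosome 10, 61731603 to 61803169, minus strand, in the coordinates of the deposited tables) stood at 243 and 243 CPM in WT and 258 and 244 in KO. Its log2 fold change was 0.05 (SE 0.12, adjusted p = 0.790), and by junction sums 0.15 (adjusted p = 0.561). No difference in its total level passed the test. The build behind these and the following gene coordinates is not named in the sources used here. Within Hk1, an exon of 69 bases had a larger share of reads in both KO libraries and is described with the junctions below.

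Glucose-6-phosphate isomerase, from Gpi1, turns glucose-6-phosphate into fructose-6-phosphate and is also found outside cells as a signalling protein. Gpi1 (NM_008155, chromosome 7, 34986346 to 35015324, minus strand) stood at 92.4 and 116.0 CPM in WT and at 174 and 182 in KO. The groups did not overlap, with KO higher, and the means were 104 ± 16.7 and 178 ± 5.79. The fitted fold was 1.71 (log2 0.77, SE 0.13), and by junction sums the log2 value was 0.65 (SE 0.16). Without WT replicate 2, the fitted log2 value was 0.95.

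One known junction of Gpi1 ran against the rest of the gene. The sequence on both sides of this junction, at the end of exon 3 (lower case) and the start of exon 4 (capitals), is shown because few reads joined these letters in KO. It is read from the minus strand of GRCm38, where exon 3 is chr7:34228928-34228996 and exon 4 is chr7:34227118-34227237 in the GENCODE M21 annotation. All 16 internal exon lengths implied by the deposited junctions match those of this transcript.
Gpi1 exon 3 to exon 4: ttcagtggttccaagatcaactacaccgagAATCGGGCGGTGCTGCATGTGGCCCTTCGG

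Reads across this junction numbered 89 and 217 in WT and 13 and 4 in KO, or 18.3 and 25.2 reads per 1000000 known junction reads in WT and 1.82 and 0.576 in KO. KO was far lower in both libraries, and the ratio of the means was 0.0551, an 18.1-fold lower value. The junction just before it had 35 and 66 reads in WT and 79 and 133 in KO. The junction just after it had 97 and 122 reads in WT and 153 and 280 in KO. Both of these neighbours were higher in both KO libraries. Across the other 16 junctions the ratio of KO to WT ran from 1.29 to 2.84 with a median of 1.90. All 16 were over 1, and 14 were higher in both KO libraries than in both WT libraries, where 23.9% of known junctions with at least 10 reads were so. Junction 8 of WT replicate 1 was low as well, with 2 reads.

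Relative to the rest of the gene, the usage of junction 3 in KO differed from WT by a log2 value of -4.87 (SE 0.51). It ranged from -6.09 without KO replicate 1 to -4.12 without KO replicate 2. No putative junction of Gpi1 reached 10 reads, and those with reads had 1 read each. The nearer edge of Gpi1, where the gene ends, lies 5.38 Mb from the end of Hnrnpl, the targeted gene. Whether reads aligned across this junction differently in the genotypes was not tested.

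**Figure D2:**
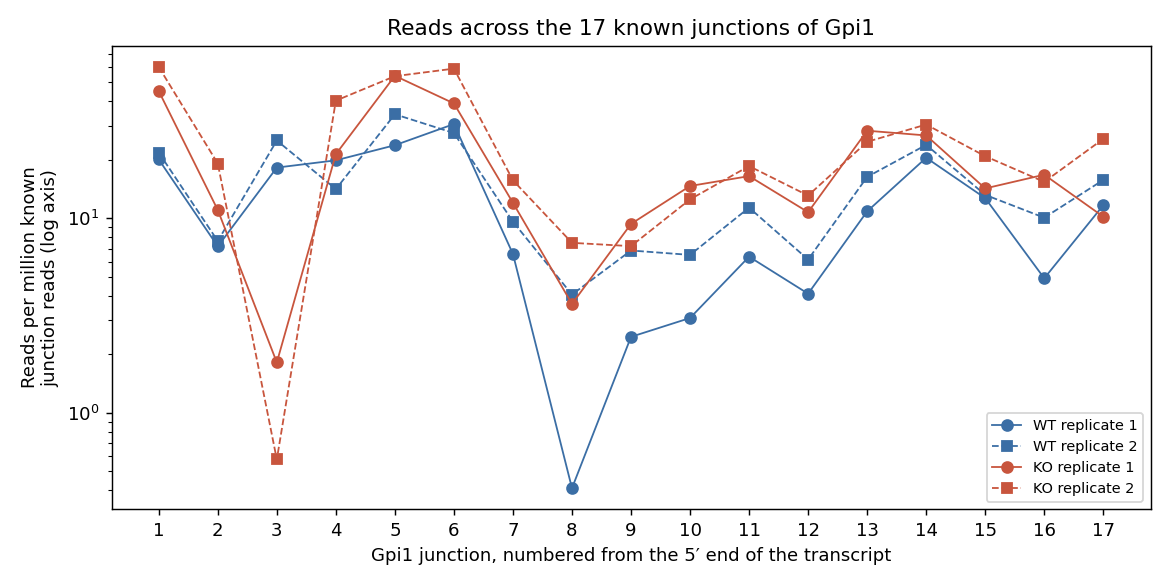
Reads per 1000000 known junction reads (log axis) at each of the 17 known Gpi1 junctions, numbered from the 5′ end of the transcript, one line per library. At junction 3 the KO libraries drop to 1.82 and 0.576 against 18.3 and 25.2 in WT, while at the other 16 junctions the KO mean is above the WT mean.

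Pfkl encodes the liver-type subunit of phosphofructokinase, the committing step of glycolysis, which red cells assemble together with the muscle-type subunit Pfkm. Pfkl (NM_008826, chromosome 10, 77449694 to 77472541, minus strand) stood at 257 and 316 CPM in WT and 133 and 134 in KO. The KO libraries were lower and close to each other, with means of 287 ± 41.6 and 133 ± 0.282. The fold was 0.465 (log2 -1.10, SE 0.14, adjusted p = 0.00672), and by junction sums the log2 value was -1.14 (adjusted p = 0.0016). The call held in all alternatives run, with log2 values from -1.25 to -0.95. Of its 21 junctions, 18 were lower in both KO libraries, where 16.4% of known junctions were. Junction 12, with 5 and 18 reads in WT and 16 and 28 in KO, was the only one with a ratio over 1, at 2.01. The other phosphofructokinase genes did not pass: Pfkm stood at 0.761-fold (adjusted p = 0.1004) and Pfkp at 0.935-fold (adjusted p = 0.742).

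Aldoa encodes aldolase A, the aldolase of muscle and red cells, which splits fructose-1,6-bisphosphate into triose phosphates. Aldoa (NM_001177307, chromosome 7, 133938748 to 133942692, minus strand) stood at 210 and 381 CPM in WT and 477 and 443 in KO. Both KO libraries were higher, but the WT libraries differed widely, with a mean of 296 ± 121 against 460 ± 24.0. Its log2 fold change was 0.64 (SE 0.25) and did not pass (adjusted p = 0.112). It passed in DESeq2 (adjusted p = 0.0304), without a filter on low counts (0.00585), with a replicate block (0.0364) and without WT replicate 2 (log2 1.13, adjusted p = 0.0201), and without WT replicate 1 the log2 value was 0.27 (adjusted p = 0.400). By junction sums the log2 value was 0.68 (adjusted p = 0.0925).

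Tpi1 encodes triosephosphate isomerase, which interconverts the triose phosphates. Tpi1 (NM_009415, chromosome 6, 124760610 to 124764314, minus strand) stood at 254 and 245 CPM in WT and 227 and 221 in KO. The KO libraries were lower by a small margin, and the log2 fold change of -0.16 (SE 0.11) did not pass (adjusted p = 0.358). Pgk1 encodes phosphoglycerate kinase 1, which makes the first ATP of the pathway's second phase, and lies on the X chromosome (NM_008828, 103382463 to 103399038, plus strand). It stood at 8.80 and 12.4 CPM in WT and 9.70 and 14.5 in KO. The groups overlapped, and the log2 fold change of 0.19 (SE 0.25) did not pass (adjusted p = 0.614). By junction sums Pgk1 had 122 and 161 reads per 1000000 known junction reads in WT and 144 and 172 in KO (log2 0.07, adjusted p = 0.823).

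Bpgm encodes bisphosphoglycerate mutase, the red cell enzyme that makes 2,3-bisphosphoglycerate. Bpgm (NM_007563, chromosome 6, 34426356 to 34455610, plus strand) stood at 394 and 355 CPM in WT and 249.97 and 232 in KO. Both KO libraries were lower, with means of 375 ± 27.5 and 241 ± 12.8. The fold was 0.643 (log2 -0.64, SE 0.13, adjusted p = 0.0175). The call was lost without WT replicate 1 (log2 -0.56, adjusted p = 0.0728), without KO replicate 2 (log2 -0.58, adjusted p = 0.0660) and by junction sums (log2 -0.40, adjusted p = 0.142), which rest on 2 junctions of this gene. The summed erythroid markers given above were lower in the same libraries, and their part in the lower Bpgm and Pfkl levels was not tested.

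The promoter windows of the genes that fell are shown because they changed in the same direction. Each is the 250 bases before the RefSeq start on GRCm38.p6, read in the direction of the gene. Bpgm lies at chr6:34476106-34476355 on the plus strand and Pfkl at chr10:78009808-78010057 on the minus strand.
Bpgm: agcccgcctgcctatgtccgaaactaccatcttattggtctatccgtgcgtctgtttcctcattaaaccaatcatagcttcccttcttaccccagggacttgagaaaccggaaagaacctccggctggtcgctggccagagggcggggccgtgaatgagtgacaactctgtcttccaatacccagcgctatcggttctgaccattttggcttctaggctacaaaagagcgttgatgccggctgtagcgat
Pfkl: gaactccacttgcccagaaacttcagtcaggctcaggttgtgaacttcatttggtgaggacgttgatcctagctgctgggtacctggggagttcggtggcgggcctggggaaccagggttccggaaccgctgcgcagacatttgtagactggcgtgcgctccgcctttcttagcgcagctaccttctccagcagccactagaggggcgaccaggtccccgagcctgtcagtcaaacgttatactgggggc

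These windows were searched on both strands for GATAA, a form of the site of the red cell factor GATA1, for CACCC, a core of sites of KLF1, and for ACGTG and the longer CACGTG, which overlap each other and are cores of sites of HIF and of MYC. Neither window holds any of these strings of letters, and other forms of the sites were not searched. Over 32851 windows of that length, GATAA was in 22.6%, CACCC in 52.0%, ACGTG in 16.6% and CACGTG in 6.02%. Over the 17 windows of the 10 genes, they were in 3, 8, 4 and 1. Some of these windows overlap, and overlapping Aldoa windows count the same CACCC match and the same ACGTG match more than once. A match or its lack describes the letters of the window only.

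Eno1 encodes enolase 1, which makes phosphoenolpyruvate. Eno1 (NM_023119, chromosome 4, 149611306 to 149622982, plus strand) stood at 40.8 and 56.2 CPM in WT and 81.2 and 90.9 in KO. Both KO libraries were higher, with means of 48.5 ± 10.9 and 86.1 ± 6.81. The fold was 1.77 (log2 0.82, SE 0.16, adjusted p = 0.0164), and the call was lost without KO replicate 2 (log2 0.74, adjusted p = 0.0643). By junction sums Eno1 had 182 and 309 reads per 1000000 known junction reads in WT and 437 and 555 in KO (log2 0.93, adjusted p = 0.0126). All 10 of its junctions had a ratio over 1. Of these, 9 were higher in both KO libraries, where 23.9% of known junctions with at least 10 reads were.

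**Figure D3:**
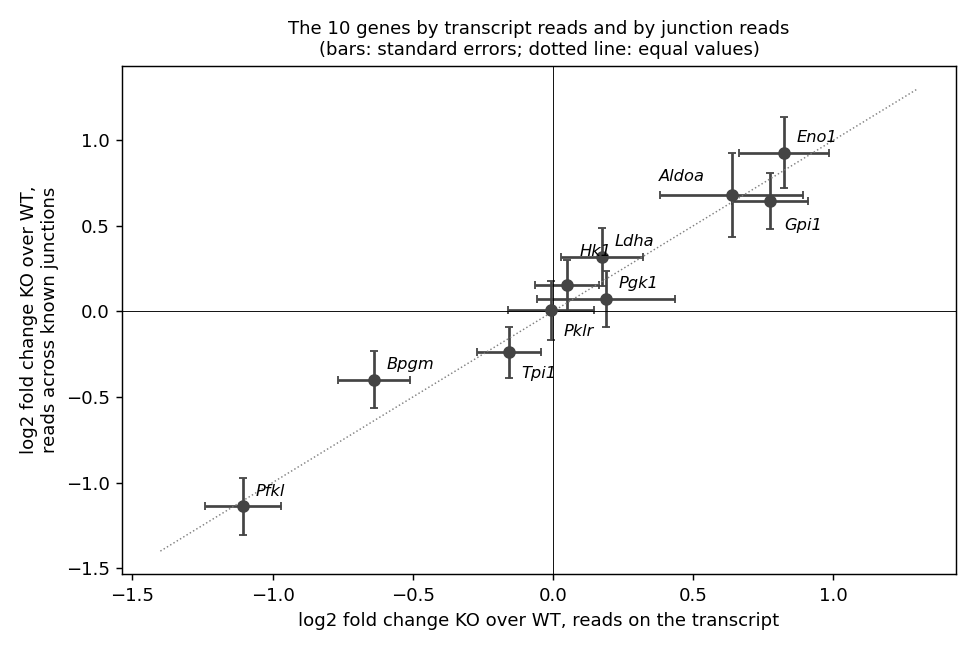
Log2 fold change of each of the 10 genes from reads on the transcript (horizontal) and from reads summed over known junctions (vertical), with standard errors as bars and equal values as a dotted line. Pfkl at -1.10 and -1.14 and Eno1 at 0.82 and 0.93 lie near the line, and Bpgm at -0.64 and -0.40 lies above it.

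Pklr encodes the pyruvate kinase of liver and red cells, which makes pyruvate and ATP, and starts from a red cell promoter or, further into the gene, a liver promoter. Pklr (NM_013631, chromosome 3, 88940064 to 88950516, plus strand) stood at 621 and 733 CPM in WT and 651 and 697 in KO. The groups overlapped, and the log2 fold change was -0.01 (SE 0.15, adjusted p = 0.980). Ldha encodes lactate dehydrogenase A, which turns pyruvate into lactate and restores NAD. Ldha (NM_010699, chromosome 7, 54101174 to 54110997, plus strand) stood at 350 and 397 CPM in WT and 388 and 455 in KO. Its groups overlapped as well, with a log2 fold change of 0.18 (SE 0.15, adjusted p = 0.419).

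The windows before both Pklr starts are shown because reads on both first exons were counted. They lie on the plus strand of GRCm38.p6 at chr3:89135892-89136141 for the red cell start and chr3:89136373-89136622 for the liver start. Capitals mark GATAA and GGGTG, which is CACCC on the other strand. The red cell window holds one of each and the liver window none.
Pklr red cell window: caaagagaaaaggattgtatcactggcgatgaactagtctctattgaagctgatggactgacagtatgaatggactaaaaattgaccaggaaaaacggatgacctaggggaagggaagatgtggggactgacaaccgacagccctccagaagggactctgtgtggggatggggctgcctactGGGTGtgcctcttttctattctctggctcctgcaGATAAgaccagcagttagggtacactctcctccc
Pklr liver window: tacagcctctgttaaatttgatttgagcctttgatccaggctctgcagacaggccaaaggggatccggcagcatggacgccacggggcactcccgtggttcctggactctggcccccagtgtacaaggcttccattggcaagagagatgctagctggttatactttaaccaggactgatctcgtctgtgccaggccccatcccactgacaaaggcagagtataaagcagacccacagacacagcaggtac

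Among reads joining either first exon of Pklr to the next exon, the liver first exon had 0 of 21 and 0 of 18 in WT. The exact 95% intervals of these counts of 0 reach 16.1% and 18.5%. In KO it had 2 of 10 (20%, exact 95% interval 2.52% to 55.6%) and 3 of 14 (21.4%, 4.66% to 50.8%). Both KO shares were higher, on few reads, and the exact two-sided permutation test gave p = 0.33, the smallest value that 2 libraries against 2 allow. The read count on the red cell transcript exceeded that on the liver transcript by 22.5 and 26.5 CPM in WT and 24.6 and 23.2 in KO. Both counts take in the reads on exons that the transcripts share, so this difference is not one of transcript levels. Intervals cover counting error only.

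The junctions of the 9 genes other than Gpi1 gave no call. Of 95 tested, 0 passed by diffSpliceDGE of edgeR, 0 passed by limma diffSplice, and 5 had an unadjusted p under 0.05, 2 in Hk1 and 3 in Pfkl. Over all 105434 junctions tested, 4 passed, or 0.00379%, and 2.46% had an unadjusted p under 0.05. Outside the first-exon reads of Pklr, Aldoa joined its farthest first exon in 0 of 25 and 4 of 92 reads in WT (4.35% in the latter) and in 0 of 152 and 0 of 109 in KO. A junction that skips a Pklr exon took 3.75% and 0.986% of its reads in WT and 2.49% and 2.63% in KO, with overlapping groups.

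Both Hk1 junctions with an unadjusted p under 0.05 flank the exon of 69 bases, and they were singled out after their values were seen. The exon is shown in capitals with 15 bases of the exons on either side, since the shares of reads that enter and leave it are the values described. It lies at chr10:62291975-62292043 on the minus strand of GRCm38 and is annotated in transcripts that begin at first exons further upstream.
Hk1 exon: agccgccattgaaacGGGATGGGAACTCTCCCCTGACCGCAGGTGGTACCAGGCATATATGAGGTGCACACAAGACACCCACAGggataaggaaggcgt

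Of the reads that joined the exon before it either to this exon or past it, 9 of 171 (5.26%, exact 95% interval 2.43% to 9.76%) and 9 of 190 (4.74%, 2.19% to 8.80%) entered the exon in WT. In KO these were 27 of 212 (12.7%, 8.56% to 17.99%) and 35 of 198 (17.7%, 12.6% to 23.7%). Both KO libraries were higher, at a mean of 15.2% ± 3.49 against 5% ± 0.372. Of the reads that joined the exon after it, 0 of 162 (exact 95% interval up to 2.25%) and 1 of 182 (0.549%) left this exon in WT. In KO 12 of 197 (6.09%) and 14 of 177 (7.91%) did. In every library the share going in was higher than the share going out, so these reads give no single level of inclusion. The reason for this difference was not tested. The exact permutation p was 0.33 for each side, the smallest possible. Relative to the other junctions of the gene, the log2 usage change was 1.41 going in (SE 0.59, unadjusted p = 0.0229) and 4.15 going out (SE 1.19, unadjusted p = 0.00096), and both had an adjusted p of 1 over all junctions. Hk1 reads were also counted at the exon that its nearer first exon and an exon further upstream both join. The farther exon gave 0 of 7 and 0 of 12 in WT and 0 of 8 and 0 of 13 in KO. It is not a first exon, since known junctions join it to exons further upstream, and these junctions had no reads.

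**Figure D4:**
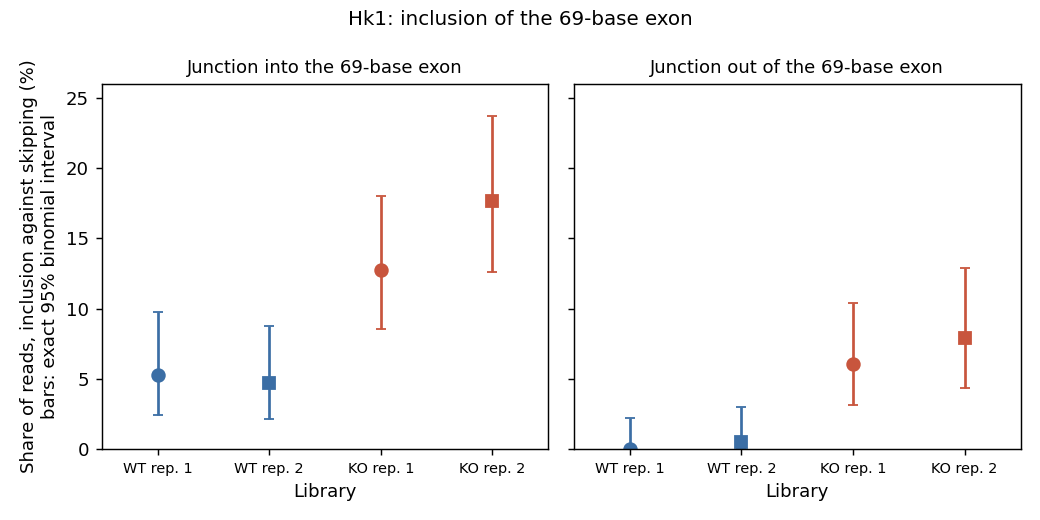
Share of Hk1 reads that enter (left) or leave (right) the 69-base exon rather than skip it, in percent, one point per library with its exact 95% binomial interval. Entry was 5.26% and 4.74% in WT and 12.7% and 17.7% in KO, a difference that did not pass the test over all junctions.

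The other genes of glucose use were counted in 6 lists, and 104 of their genes were tested. Of these, 20 rose and 9 fell, where 11.4% of all genes tested were higher and 9.43% lower, with a median log2 fold change of 0.11 beside 0.02 for all genes. Of the 24 genes of these lists named below that passed, 16 lost the call without some single library, at adjusted p-values from 0.0508 to 0.190, and 8 kept it.

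Among 15 isoenzymes and remaining steps of glycolysis, 3 rose and 1 fell, with a median log2 value of 0.06. The hexokinases Hkdc1 (13.1 and 15.0 CPM in WT, 27.8 and 27.7 in KO, 1.97-fold, adjusted p = 0.00759) and Hk2 (19.3 and 23.5 in WT, 40.3 and 42.9 in KO, 1.94-fold, adjusted p = 0.00815) rose. Adpgk, which phosphorylates glucose with ADP in place of ATP, rose 1.61-fold (adjusted p = 0.0109). Pgam2, the muscle phosphoglycerate mutase, fell by 3.19 on the log2 scale (adjusted p = 0.0346) on 8 and 28 reads in WT and 1 and 3 in KO, together with the striated muscle markers. Its call was lost when WT replicate 1 (adjusted p = 0.0570), KO replicate 1 (0.163) or KO replicate 2 (0.123) was left out, and without WT replicate 2 it did not pass the filter on low counts. Pkm2, the pyruvate kinase of most fetal tissues and per length the most abundant of this list in WT at 49.3 RPKM, stood at 1.17-fold (adjusted p = 0.213). Its 10 known junctions had ratios from 1.11 to 1.81, and none passed the usage test. They form 1 route through the gene, and its exclusive alternative exon was not analysed here.

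The remaining genes of this list did not pass. Hk3 stood at 1.22-fold (adjusted p = 0.315), Aldoc at 1.47-fold (0.133) and Ldhb at 1.02-fold (0.935). The muscle enolase Eno3 stood at 0.627-fold (adjusted p = 0.0622) and the neuronal enolase Eno2 at 0.819-fold on 16 to 21 reads. Ldhd had 4 to 28 reads and Pgam1 24 to 34 per library, and Gapdh by junction sums had 478 and 530 reads per 1000000 in WT and 531 and 633 in KO (log2 0.12, adjusted p = 0.671).

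**Figure D5:**
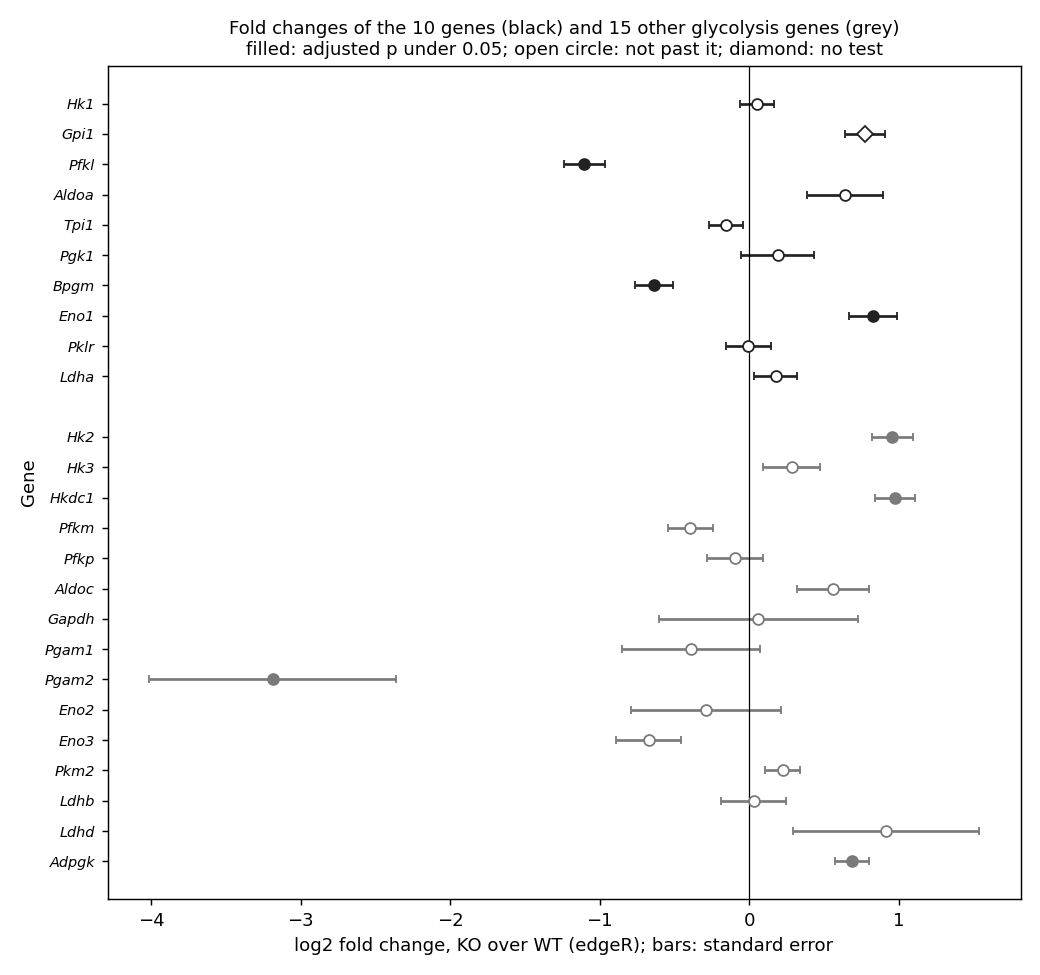
Log2 fold change of KO over WT from edgeR with its standard error, for the 10 genes (black) and 15 isoenzymes and remaining steps (grey). Filled circles passed an adjusted p of 0.05, open circles did not and the diamond is Gpi1, which has no test; Gapdh and Pgam1 rest on 6 to 34 reads per library.

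Among 16 transporters tested, 3 rose and 1 fell (median log2 0.16). Slc2a4, the insulin-responsive transporter GLUT4, fell to 0.543-fold (65.9 and 58.5 CPM in WT, 38.5 and 29.1 in KO, adjusted p = 0.0127). Slc2a2, the hepatocyte transporter GLUT2, rose 1.72-fold (adjusted p = 0.0169; 0.0606 without WT replicate 2), and Slc2a3 and Slc16a7 rose 1.48-fold and 1.49-fold (adjusted p = 0.0280 and 0.0338). Slc2a3 kept its call only when WT replicate 2 was left out (0.0523 to 0.120 otherwise), and Slc16a7 only when WT replicate 1 was (0.0716 to 0.162 otherwise). Slc2a1, the main glucose transporter of red cell precursors, stood at 1414 and 1358 CPM in WT and 1245 and 796 in KO and did not pass (adjusted p = 0.192). Bsg, the partner of lactate transporters, was per length the most abundant at 348 RPKM in WT and did not pass (0.853-fold, adjusted p = 0.454).

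Among 24 genes that regulate flux, 2 rose and 1 fell (median log2 -0.04). Pdk1, a kinase that switches off pyruvate dehydrogenase, fell to 0.544-fold (159 and 198 CPM in WT, 90.2 and 104 in KO, adjusted p = 0.0109) and kept the call without any single library. Gckr rose 1.73-fold (adjusted p = 0.0147), and Pfkfb3, which makes the activator of phosphofructokinase, rose 1.49-fold (adjusted p = 0.0196). Both lost the call without WT replicate 2 or KO replicate 2. Pdha1, the most abundant by its WT mean, stood at 0.843-fold (adjusted p = 0.200). Its WT libraries, at 32.5 and 40.6 RPKM, overlapped those of Brp44 at 33.5 and 36.3 and of Dld at 29.1 and 37.1.

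In the pentose phosphate pathway, which makes NADPH and ribose, 2 of 12 genes rose and 2 fell (median log2 -0.18). H6pd rose 1.70-fold (96.3 and 85.8 CPM in WT, 166 and 143 in KO, adjusted p = 0.0108) and Pgd 1.33-fold (adjusted p = 0.0377). Rpia fell to 0.720-fold (adjusted p = 0.0302) and Prps2 to 0.772-fold (adjusted p = 0.0445). Calls for Pgd and Prps2 were lost without any one of the 4 libraries, and that for Rpia without each of 3. Taldo1, the most abundant by its WT mean of 142 RPKM, stood at 0.778-fold (adjusted p = 0.0758). Its WT libraries, at 135 and 149 RPKM, overlapped those of Tkt at 101 and 148.

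In gluconeogenesis and glycogen turnover, 7 of 19 genes rose and 3 fell (median log2 0.40). Gaa, which breaks down glycogen in lysosomes, rose 1.94-fold (44.6 and 51.2 CPM in WT, 90.9 and 94.7 in KO, adjusted p = 0.00672). Pgm2l1, which makes glucose-1,6-bisphosphate, fell to 0.571-fold (57.0 and 63.8 CPM in WT, 34.3 and 34.7 in KO, adjusted p = 0.00808). Gys2, the glycogen synthase of liver, rose 1.77-fold (adjusted p = 0.0181), Pygl, the glycogen phosphorylase of liver and the most abundant, rose 1.32-fold (adjusted p = 0.0334), and Pck2 fell to 0.696-fold (adjusted p = 0.0190). Gys2 and Pck2 lost the call without WT replicate 2 or KO replicate 2, and Pygl without any one library. The summed hepatocyte markers given above were higher in the same libraries, and their part in the levels of this list was not tested.

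Among 18 genes of bisphosphoglycerate turnover, glycerol and side branches, 3 rose and 1 fell (median log2 0.06). Gpd1 rose 1.79-fold (adjusted p = 0.0205), Galk1 1.31-fold (0.0373) and Gfpt1 1.32-fold (0.0461). Hagh, which clears the methylglyoxal that triose phosphates give off, fell to 0.618-fold (81.6 and 68.4 CPM in WT, 54.4 and 38.3 in KO, adjusted p = 0.0332). Each of these 4 calls was lost without at least 1 library. Minpp1, a phosphatase that can act on 2,3-bisphosphoglycerate and the most abundant of this list by its WT mean, stood at 0.931-fold (adjusted p = 0.556). Its WT libraries, at 31.4 and 37.5 RPKM, overlapped those of other genes of the list, such as Sord at 31.2 and 35.2.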

How the data were processed

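RNA was depleted of ribosomal RNA, cut with RNase III and sequenced on 2 slides, per the labels' protocols. Which slide held which libraries is not recorded in the labels, and slide and genotype cannot be told apart. The authors deposited raw counts of reads per RefSeq transcript, made per the file headers from primary alignments of mapping quality 10 or more. The deposited tables also hold RPKM and reads per nucleotide, a coverage signal; both matched values recomputed from the counts in 100% of rows. A second deposited table gives raw counts of reads per splice junction. Aligner, build, strand use and junction counting rules: not given in the sources used here.

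One transcript per gene, that with most reads, was kept. Gene levels were tested with edgeR 4.0.16 (quasi-likelihood, TMM, filterByExpr, Benjamini-Hochberg over 15036 genes, threshold 0.05) in R 4.3.3, and junction usage with diffSpliceDGE on junctions with at least 10 reads in genes with at least 2 of them. SE is the size of the log2 fold change over the square root of F. Shares were tested by exact permutation with scipy 1.17.1. Alternatives were DESeq2 1.42.0, RLE or no scaling, no filter, summed transcripts, limma 3.58.1, a replicate block, leaving out each library and, chosen after seeing the data, summed known junction reads. Sequences come from GRCm38 with GENCODE M21 exons and from RefSeq (GRCm38.p6). Junctions were matched to them by exon length, with no conversion of coordinates.

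The 10 genes, the gene lists and the rule for named genes were chosen with earlier results of these data known. The rule named the 10 genes, Hnrnpl, and of each list the up to 4 genes with the smallest p among those past the threshold, the most abundant per length in WT and, for the first list, every tested gene. A few listed genes are not reported here and entered no list count. Of the other 115 listed symbols 110 matched; the 5 that did not are newer names of genes also listed under their older ones.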

Additional observations from a re-analysis of the deposited data

How the results depend on the processing

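Of the 9 genes tested, 2 were higher under DESeq2, without a filter on low counts and with a replicate block, in place of 1, and leaving out 1 library gave 0 to 2. The number lower was 1 by junction sums in place of 2, and 1 to 2 with a library left out. Over the 6 lists, 20 higher and 9 lower became 10 and 4 by junction sums, 15 lower under DESeq2, without a filter and with the block, and 7 to 15 higher and 3 to 9 lower with a library left out. Over all genes, calls numbered 3129, against 4340 without a filter, 4343 with the block, 1195 by junction sums, and 1612, 1119 and 1015 when WT replicate 1, WT replicate 2 or KO replicate 2 was left out. Without scaling, 2374 were higher and 942 lower (71.6% higher, against 54.7%), and the median log2 fold change was 0.11 in place of 0.02. The difference in Pklr exon skipping, 0.195 percentage points, was -1.19 without WT replicate 2 and up to 1.58 with another library left out. The difference in the Pklr liver first exon, 20.7 points, was 20 to 21.4 with a library left out and 0.0879 as a share of all junction reads of the gene; those of the Hk1 exon, 10.2 going in and 6.73 going out, were 1.00 and 0.655 on that basis, which has a larger denominator. No junction of the 9 genes passed under any alternative run. Usage of Gpi1 junction 3 was -6.09 without KO replicate 1. Apart from the denominator, the cause of each shift was not tested.

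The block used a number that table names share between a WT and a KO library. The labels do not give it. Same-numbered libraries correlated at 0.136 in their deviations over 15036 genes, and whether the number pairs the libraries is not known. With 2 libraries per group, no exact test over libraries can go below 0.33.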
